A study of Homo sapiens with 18 samples.

Results

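Primed enhancers of H2087-LCC cells (here LCC) were taken as sites that carry H3K4me1 without H3K27ac or H3K4me3. The rule kept H3K4me1 peak summits with a deposited score of at least 10, the −log10 of a p or q value, that had no H3K27ac summit of either LCC replicate and no H3K4me3 summit within 2 kb. Summits within 1 kb of each other were merged. The rule gave 20763 elements, called primed elements here, beside 132550 when all LCC H3K4me1 summits are merged in the same way. Each set was merged on its own. All lists come from chromatin immunoprecipitation and sequencing (ChIP-seq) of human lung adenocarcinoma lines, in which 3 histone marks were mapped in 4 conditions. TGFb is the same LCC line given 100 nM TGF-β1 for 4 days, the dose being as the labels state it, SO1 is H2087-LCC-SO1, and H2030 is a separate lung adenocarcinoma line kept in a simpler medium. The labels spell out neither LCC nor SO1 and do not say whether SO1 is 1 clone, and for H2030 the line and the medium cannot be told apart.

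Enhancers are DNA elements that raise transcription of genes at a distance. H3K4me1 is laid down at enhancers by the methyltransferases KMT2C and KMT2D, H3K27ac is added by the acetyltransferases EP300 and CREBBP when an enhancer or promoter is active, and H3K4me3 marks promoters. An enhancer with H3K4me1 alone is called primed, since it can gain H3K27ac when a signal or a change of cell state brings the transcription factors for it. TGF-β1 signals through SMAD proteins, which often bind enhancers that other factors have already opened.

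The 13 libraries hold 947675 summits, 1 per peak, in hg19 coordinates. LCC H3K27ac had 2 biological replicates, with 50663 and 62986 summits. Every other mark had 1 library per condition, so no p-value is given, and only the LCC replicates measure how far repeated libraries differ. The H3K27ac lists held 68118 summits in TGFb, 56324 in SO1 and 52534 in H2030, and read depth is unknown. Intervals are Wilson 95% intervals and cover counting error only. In such bulk libraries a mark present in fewer cells and a weaker mark in every cell cannot be told apart.

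The primed elements were weaker than other LCC H3K4me1 sites above the score threshold. Of 142611 LCC H3K4me1 summits on the chromosomes used, 77770 scored at least 10, 50934 of those had no H3K4me3 nearby, and 20970 also had no H3K27ac of either replicate. These merged into 20556 elements of 1 summit and 207 of 2 summits. Their scores ran from 10.0 to 167, with quartiles of 12.4, 15.8 and 22.03, where the median was 11.6 over the whole LCC H3K4me1 list and 23.7 over its summits scoring at least 10. By comparison, 17939 elements chosen in the same way but with H3K27ac of both LCC replicates within 2 kb, called active elements here, had a median score of 40.7. The median primed element lay 9.73 kb from the nearest LCC H3K27ac summit (quartiles 4.66 and 23.1 kb) and 24.2 kb from the nearest LCC H3K4me3 summit (9.35 and 58.3 kb). The median distance to H3K4me3 was 24.3 kb for the active elements.

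The elements were thus chosen by their LCC H3K4me1 score and by the distance to LCC H3K27ac and H3K4me3 summits, so these values describe the choice and are not findings. The thresholds fell where summits are dense. The lowest scores inside were 10.0037 at chr16:71189707 and 10.0057 at chr1:25088835, and the highest outside were 9.99845 at chr15:57633297 and at chr15:92701804. There were 2345 LCC H3K4me1 summits with scores of 10 to 11 and 3233 with scores of 9 to 10. At the distance limit, chr1:224806159 was kept at 2001 bp from an LCC H3K4me3 summit and chr2:66656125 at 2001 bp from an LCC H3K27ac summit. The summits at chr1:98143875 and chr12:57402595 were left out at 2000 bp from an LCC H3K27ac summit.

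The strongest primed elements stood close to active LCC sites, which bears on the name primed. A file gives 1 summit per peak and no width, so a site inside a broad LCC peak whose summit is more than 2 kb away counts as unmarked. Of the 31 primed elements with an LCC H3K4me1 score of at least 100, 27 had an LCC H3K27ac summit within 5 kb and 19 had H3K27ac or H3K4me3 within 3 kb. Of all primed elements, 27.4% and 12.2% did. The highest score, 167 at chr14:35803518, lay 2009 bp from an LCC H3K27ac summit and 2348 bp from an LCC H3K4me3 summit. The next, 155 at chr12:53318661, lay 2260 bp from LCC H3K27ac, and in SO1 it carried an H3K27ac summit scoring 64.7 at 70 bp. In contrast, 9764 primed elements, 47.0%, had neither mark of LCC within 10 kb, and results are also given for elements that far from both.

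H3K4me1 was largely kept in TGFb, less in SO1, and absent from most primed elements in H2030. An H3K4me1 summit lay within 1 kb of 17897 primed elements in TGFb, 86.2% (85.7 to 86.7). In the background, all 50121 LCC H3K4me1 elements scoring at least 10 without H3K4me3, 87.7% were marked. The background includes the primed elements and is not matched to them by score. In SO1 it lay at 14292, 68.8% (68.2 to 69.5), against a background of 75.4%. In H2030 it lay at 7911, 38.1% (37.4 to 38.8), against 43.8%. The 3 conditions thus followed the same order at the primed elements and in the background, with the primed share the lower in each. Among weaker LCC H3K4me1 elements, with scores under 10 and the same marks absent, the shares were 54.1% in TGFb, 41.7% in SO1 and 29.5% in H2030. When H3K4me1 summits had to score at least 10, the shares of primed elements were 56.9%, 48.9% and 20.6% in the same order.

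**Figure D1:**
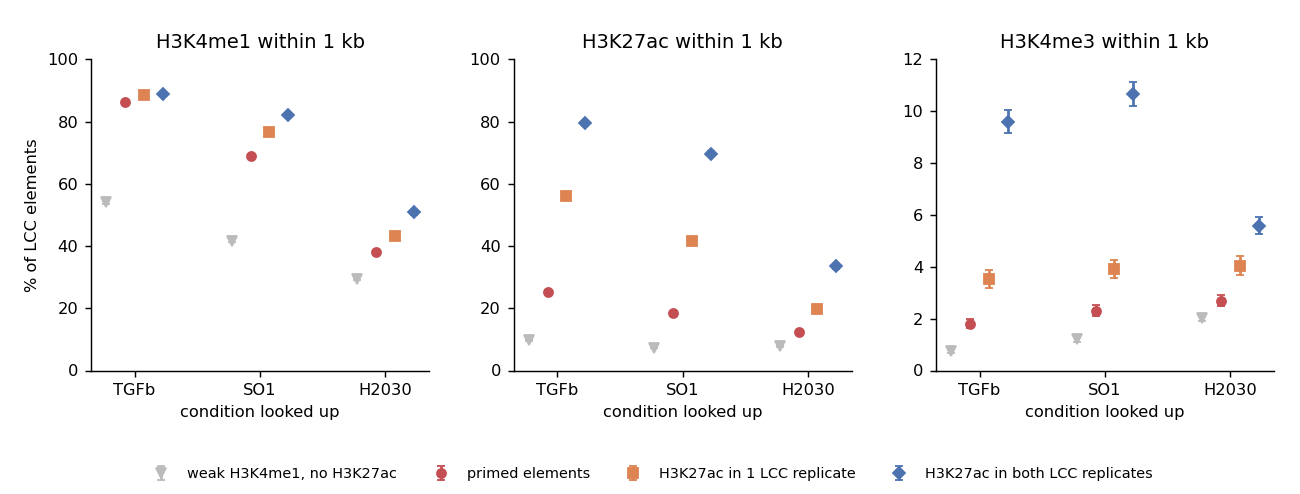
Share of LCC H3K4me1 elements (%) with a summit of H3K4me1, H3K27ac or H3K4me3 within 1 kb in TGFb, SO1 and H2030, for 44409 weak elements, 20763 primed elements, 11428 elements with H3K27ac of 1 LCC replicate and 17939 with H3K27ac of both, with Wilson 95% intervals. The primed elements lie near the other strong elements for H3K4me1 and well below them for H3K27ac, a gap that the choice of elements by LCC H3K27ac fixes in part; the H3K4me3 axis ends at 12%.

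At equal H3K4me1 strength in LCC, primed elements kept H3K4me1 in TGFb about as often as active elements and in SO1 and H2030 mostly less often. With LCC scores of 30 to 50, TGFb H3K4me1 was found at 92.7% (91.5 to 93.8) of 1972 primed and 90.2% (89.5 to 90.9) of 6245 active elements. For SO1 the shares were 84.1% (82.4 to 85.7) and 84.2% (83.3 to 85.1). In H2030 the primed share was lower, 44.6% (42.4 to 46.8) against 51.4% (50.2 to 52.7). That range was the only one in which the SO1 intervals overlapped. At LCC scores of 10 to 15, 15 to 20, 20 to 30 and over 50, SO1 H3K4me1 lay at 61.0%, 69.6%, 77.7% and 79.4% of primed and 66.6%, 74.4%, 80.5% and 84.9% of active elements. In TGFb the primed share was lower at scores of 10 to 15, 80.7% against 84.7%, and higher at 20 to 30, 93.2% against 90.9%, with intervals that did not overlap. In H2030 it was lower at scores of 15 to 20, 37.0% against 45.0%, and at 20 to 30, 41.1% against 49.1%, while the intervals overlapped at 10 to 15 and over 50. These intervals cover counting error within a library, and whether the gaps would recur in another library was not tested. Over all scores, active elements had H3K4me1 at 88.8% in TGFb, 82.2% in SO1 and 50.8% in H2030.

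H3K27ac appeared at a minority of primed elements in each condition, most often in TGFb. It was found at 5270 in TGFb, 25.4% (24.8 to 26.0), at 3862 in SO1, 18.6% (18.1 to 19.1), and at 2549 in H2030, 12.3% (11.8 to 12.7). The shares of the background elements were 51.8%, 42.1% and 21.5%. The rule removed every element with LCC H3K27ac, so nothing is read from the distance to the background. Most of this H3K27ac was weak for its library. Its median score was 9.17 in TGFb, where the whole list has a median of 20.9, 11.3 in SO1 against 30.1, and 11.2 in H2030 against 15.5. Summits at or above their list's median, called strong here, were found at 1197 primed elements in TGFb (5.77%), 754 in SO1 (3.63%) and 1012 in H2030 (4.87%), where the background shares were 27.5%, 20.8% and 11.7%. When marks had to score at least 10, H3K27ac remained at 11.7% in TGFb, 10.1% in SO1 and 6.63% in H2030.

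The TGFb share of H3K27ac lay closer to that of SO1 when the longer TGFb list was shortened. With all lists of a mark shortened to the same number of highest-scoring summits, 23580 elements met the rule, and H3K27ac lay at 18.5% (18 to 19) of them in TGFb, 17.9% (17.4 to 18.4) in SO1 and 12.7% (12.3 to 13.1) in H2030. The TGFb and SO1 shares were then close, and both were above the H2030 share. The intervals cover counting error only and not a change of library, so they do not decide the order of the conditions.

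The 2 LCC replicates show how much H3K27ac a second LCC library finds at elements chosen without it. Elements were drawn again with H3K27ac of replicate 1 alone, which gave 29414, and replicate 2 marked 26.9% (26.4 to 27.4) of them. TGFb marked 36.1%, SO1 26.3% and H2030 14.8% of the same elements. Drawn with replicate 2 alone there were 23537, of which replicate 1 marked 9.92% (9.55 to 10.3), TGFb 26.9%, SO1 20.1% and H2030 12.7%. TGFb was thus above the other LCC replicate in both draws, and SO1 and H2030 only in the second. Drawing elements without H3K27ac of 1 LCC replicate also lowers the share in the other, which fixes part of these gaps. The means were 18.4% ± 11.98 (SD, n = 2) for the LCC replicates, 31.5% ± 6.56 for TGFb, 23.2% ± 4.38 for SO1 and 13.7% ± 1.46 for H2030. The ranges of 1 SD overlapped between LCC and every condition, and the 2 draws share elements, so these are not independent values. Both values of TGFb, SO1 and H2030 come from 1 library each, so only the LCC SD covers a change of library. With H3K27ac lists of equal length, LCC stood at 15.3% ± 3.90, TGFb at 22.9% ± 3.15, SO1 at 21.6% ± 2.07 and H2030 at 13.8% ± 0.663, and SO1 was then also above the other LCC replicate in both draws.

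Strong H3K27ac was set beside the other LCC replicate in the same way. All elements were chosen for lacking H3K27ac in 1 LCC replicate. That choice also lowers the share in the other LCC replicate, so the size of the gap is not read as a result. Among elements drawn with replicate 1, replicate 2 had a strong summit at 3.798% (3.59 to 4.02), TGFb at 10.9%, SO1 at 6.51% and H2030 at 6.43%. Among those drawn with replicate 2, replicate 1 had one at 1.496% (1.35 to 1.66), TGFb at 6.58%, SO1 at 4.72% and H2030 at 5.18%. All 3 conditions exceeded the other LCC replicate in both draws. The means were 2.65% ± 1.63 (SD, n = 2) for LCC, 8.74% ± 3.05 for TGFb, 5.62% ± 1.27 for SO1 and 5.80% ± 0.878 for H2030. The SD of the 3 conditions again reflects the draws of elements and not repeated libraries. With equal list lengths the means were 1.43% ± 0.387, 4.04% ± 0.795, 4.72% ± 0.160 and 5.72% ± 0.438 in that order, so that TGFb was no longer the highest. Where elements had to lie 10 kb from LCC H3K27ac and H3K4me3, the means were 2.21% ± 1.97, 9.43% ± 3.40, 5.88% ± 1.36 and 5.92% ± 0.887. Peak names of LCC replicate 1, LCC H3K4me1 and LCC H3K4me3 carry the letter C and those of replicate 2 the letter D. What the letters mean is not stated, and their part in the gap between the replicates was not tested.

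**Figure D2:**
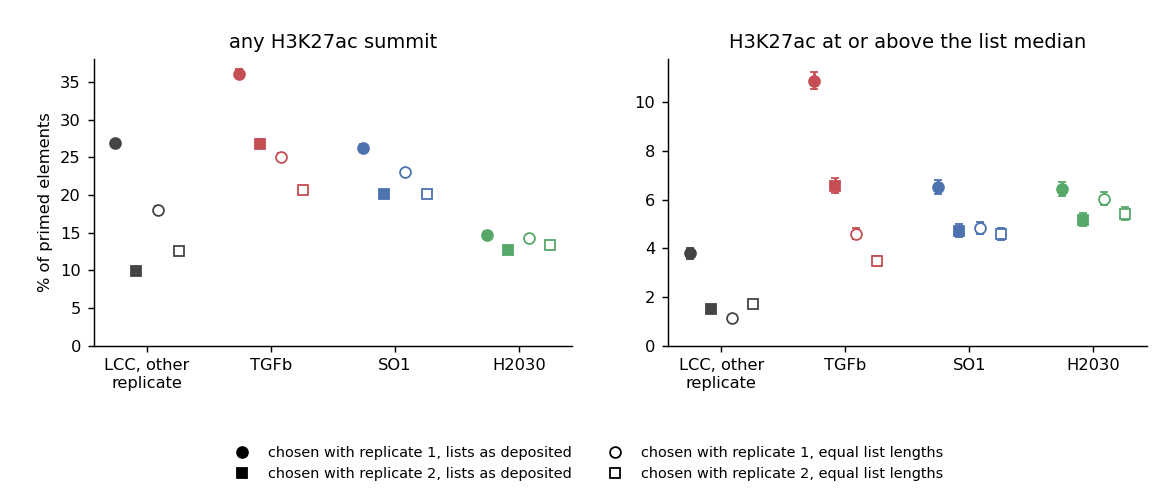
Share of primed elements (%) with H3K27ac within 1 kb when elements are chosen with 1 LCC replicate only and looked up in the other replicate, TGFb, SO1 and H2030, with Wilson 95% intervals (left, any summit; right, summits at or above their list's median). Filled symbols use the lists as deposited and open symbols lists of equal length. On the right, with lists as deposited, all 3 conditions lie above both LCC values, 3.798% and 1.496%. With lists of equal length they lie above the LCC values of 1.16% and 1.70%. The choice of elements without LCC H3K27ac fixes part of these gaps.

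H3K27ac of the other conditions was centred on the LCC H3K4me1 summit. Per 100 primed elements of 1 summit, TGFb had 29.3 H3K27ac summits in the 2 kb around the LCC summit and 11.7 per 2 kb at 3 to 5 kb from it. SO1 had 20.9 and 9.47, and H2030 had 14.03 and 8.52. Within 200 bp of the LCC summit the density was 5.98 times that at 3 to 5 kb in TGFb, 5.56 times in SO1 and 3.42 times in H2030. The same held for LCC replicate 2 at elements drawn with replicate 1, where the ratio was 5.997, and less so for replicate 1 at elements drawn with replicate 2, where it was 2.83. H3K4me1 was centred more sharply in TGFb (9.25 times) and SO1 (8.91 times) than in H2030 (4.03 times). These densities were not computed for active or background elements, so they are not read as particular to primed elements. The zone at 3 to 5 kb lies outside the 2 kb kept free of LCC H3K27ac, so the rule can also affect the ratios.

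**Figure D3:**
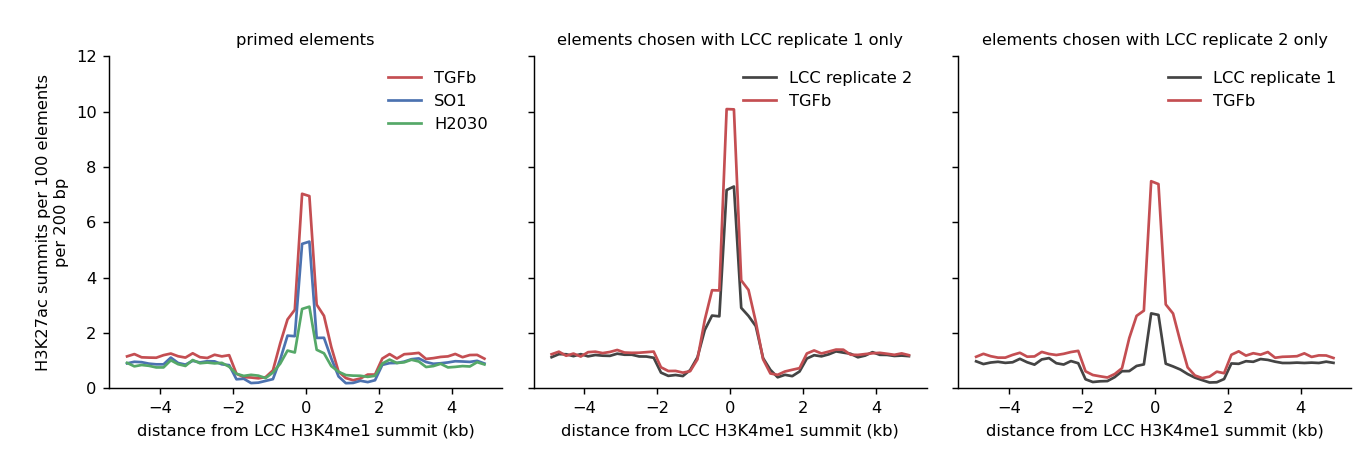
H3K27ac summits per 100 elements in bins of 200 bp by distance (kb) from the LCC H3K4me1 summit, for primed elements of 1 summit in TGFb, SO1 and H2030 (left) and for elements chosen with 1 LCC replicate, looked up in the other replicate and in TGFb (middle and right). Each curve peaks at the LCC summit, at 6.99 per 100 in TGFb, 5.26 in SO1 and 2.91 in H2030 within 200 bp; the dip at 1 to 2 kb lies in the zone that the rule keeps free of LCC H3K27ac.

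H3K27ac came mostly with H3K4me1, at primed and active elements alike. Active elements had both marks without H3K4me3 at 65.5% in TGFb, 54.6% in SO1 and 24.9% in H2030. They had H3K27ac alone at 5.75%, 5.55% and 4.10% in the same order. In TGFb 23.2% of primed elements had both marks without H3K4me3, 1.38% had H3K27ac alone, 61.3% stayed with H3K4me1 alone and 12.3% had no mark. In SO1 the shares were 16.2%, 1.17%, 50.5% and 29.8%, and in H2030 8.71%, 2.15%, 27.3% and 59.2%. H3K27ac was found at 27.8% (27.1 to 28.5) of the elements that kept H3K4me1 in TGFb and at 10.3% (9.23 to 11.5) of those that did not. In SO1 it was found at 25.2% and 4.00%, and in H2030 at 25.9% and 3.88%. Among primed elements that kept H3K4me1 the share with H3K27ac thus lay between 25.2% and 27.8%, while the share that kept it lay between 38.1% and 86.2%. This split by H3K4me1 was not computed for the background, so it is not read as particular to primed elements.

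**Figure D4:**
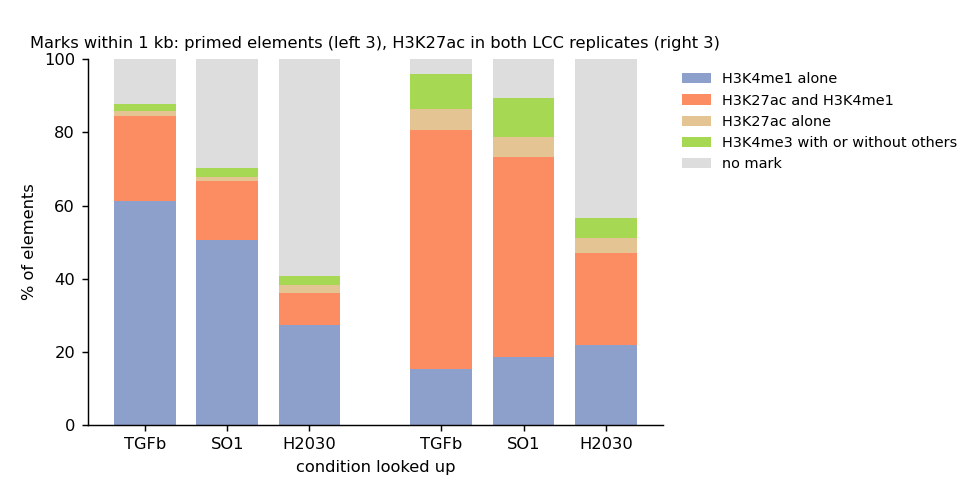
Share of elements (%) in each combination of marks within 1 kb in TGFb, SO1 and H2030, for 20763 primed elements (left 3 bars) and 17939 elements with H3K27ac of both LCC replicates (right 3 bars); bars add to 100%. H3K4me1 alone is the largest class of primed elements in TGFb (61.3%) and SO1 (50.5%), and absence of all marks is the largest in H2030 (59.2%).

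Seen over all 3 conditions, 12794 primed elements, 61.6%, had no H3K27ac in any of them, against 37% of the background elements. The rule fixes part of that gap, and nothing is read from it. H3K4me1 was kept in all 3 conditions at 5939 primed elements, 28.6% (27.99 to 29.2), against 34.5% of the background. H3K4me1 in all 3 with H3K27ac in none was found at 2582, 12.4%, against 7.46%. No summit of any mark was found in TGFb, SO1 or H2030 at 1291, 6.22%, against 3.7%. Both of these classes lack H3K27ac, so their gaps also depend on the rule.

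H3K4me3, the promoter mark, was rare at primed elements. It lay at 376 in TGFb, 1.81% (1.64 to 2.00), 479 in SO1, 2.31% (2.11 to 2.52), and 558 in H2030, 2.69% (2.48 to 2.92), against backgrounds of 4.98%, 5.66% and 4.03%. These summits were weak, with median scores of 6.76, 8.81 and 14.3, where the lists have medians of 147, 183 and 247. Strong H3K4me3 was found at 7 primed elements in TGFb (0.0337%), 7 in SO1 (0.0337%) and 21 in H2030 (0.101%), against background shares of 0.0718%, 0.0798% and 0.146%. Several of these lay just outside the excluded zone: 4 of the 7 in TGFb, 4 of the 7 in SO1 and 6 of the 21 in H2030 had LCC H3K4me3 within 3 kb. The highest TGFb score, 579 at chr11:95521776, was 2130 bp from an LCC H3K4me3 summit, and H2030 had one scoring 543 there. At chr22:45406491, 2466 bp from LCC H3K4me3, all 3 conditions had it, with scores of 330.0 in TGFb, 216 in SO1 and 488 in H2030.

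Primed elements with more H3K4me1 in LCC were marked more often elsewhere, which was not particular to them. From the lowest to the highest quartile of LCC score, H3K4me1 went from 77.3% to 92.7% in TGFb, from 58.1% to 80.9% in SO1 and from 33.7% to 43.7% in H2030. H3K27ac went from 18.1% to 34.1% in TGFb, from 13.5% to 24.3% in SO1 and from 11.3% (10.4 to 12.2) to 13.5% (12.6 to 14.4) in H2030. At the 388 elements with scores over 50 the conditions parted. TGFb H3K27ac lay at 25.5% (21.4 to 30.1) of them, against 36.2% (34.1 to 38.3) at scores of 30 to 50. H2030 H3K27ac lay at 18.6% (15.003 to 22.7) against 12.5% (11.1 to 14.1), and H2030 H3K4me1 at 55.2% (50.2 to 60.03) against 44.6%. The SO1 intervals for H3K27ac overlapped, at 22.2% (18.3 to 26.6) against 25.1% (23.2 to 27.1). Of those 388 elements, 64.2% lay within 5 kb of LCC H3K27ac. Over the same scores, elements with H3K27ac of 1 LCC replicate went from 63.3% to 58.0% in TGFb. In H2030 they went from 21.0% (19.5 to 22.6) to 22.6% (19.9 to 25.5). Active elements went from 82.4% to 83.5% in TGFb and from 33.2% to 38.2% in H2030. The parting is thus not read as particular to primed elements. The intervals cover counting error only, and whether the parting would recur in other libraries of the conditions was not tested. Active elements were also compared between scores of 10 to 15 and over 50. Their H3K27ac went from 60.6% to 83.5% in TGFb, 44.8% to 78.7% in SO1 and 21.4% to 38.2% in H2030. Their H3K4me1 went from 66.6% to 84.9% in SO1 and from 39.1% to 54.1% in H2030. In TGFb it went from 84.7% to 87.0%, with 90.9% at scores of 20 to 30.

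With distance from LCC H3K27ac, marking differed by condition and by the strength of the summit. Any TGFb H3K27ac lay at 24.3% (23.2 to 25.5) of primed elements 2 to 5 kb from LCC H3K27ac and 25.3% (23.5 to 27.2) of those over 50 kb from it. SO1 H3K27ac lay at 15.9% (14.96 to 16.9) at 2 to 5 kb, 21.4% (19.9 to 22.99) at 25 to 50 kb and 20.04% (18.4 to 21.8) beyond 50 kb. H2030 H3K27ac lay at 13.6% (12.7 to 14.5) of the nearest and 10.1% (8.88 to 11.4) of the farthest group. Strong H3K27ac lay at 4.51% of primed elements 2 to 5 kb away and 7.21% beyond 50 kb in TGFb, at 3.02% and 4.48% in SO1, and at 4.35% and 5.04% in H2030. H3K4me1 in H2030 lay at 41.9% (40.7 to 43.2) at 2 to 5 kb and 25.7% (23.9 to 27.6) beyond 50 kb, and in TGFb lay between 82.9% and 87.8%. Near LCC promoters, 2 to 3 kb from H3K4me3, TGFb H3K27ac lay at 14.97% and H2030 H3K4me1 at 57.8% of 1122 primed elements. More than 25 kb away the shares were 26.7% and 32.3% of 10178 elements. The near group also had the higher median LCC H3K4me1 score, 22.7 against 15.2. Shares by distance were not computed for active or background elements, so none is read as particular to primed elements.

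**Figure D5:**
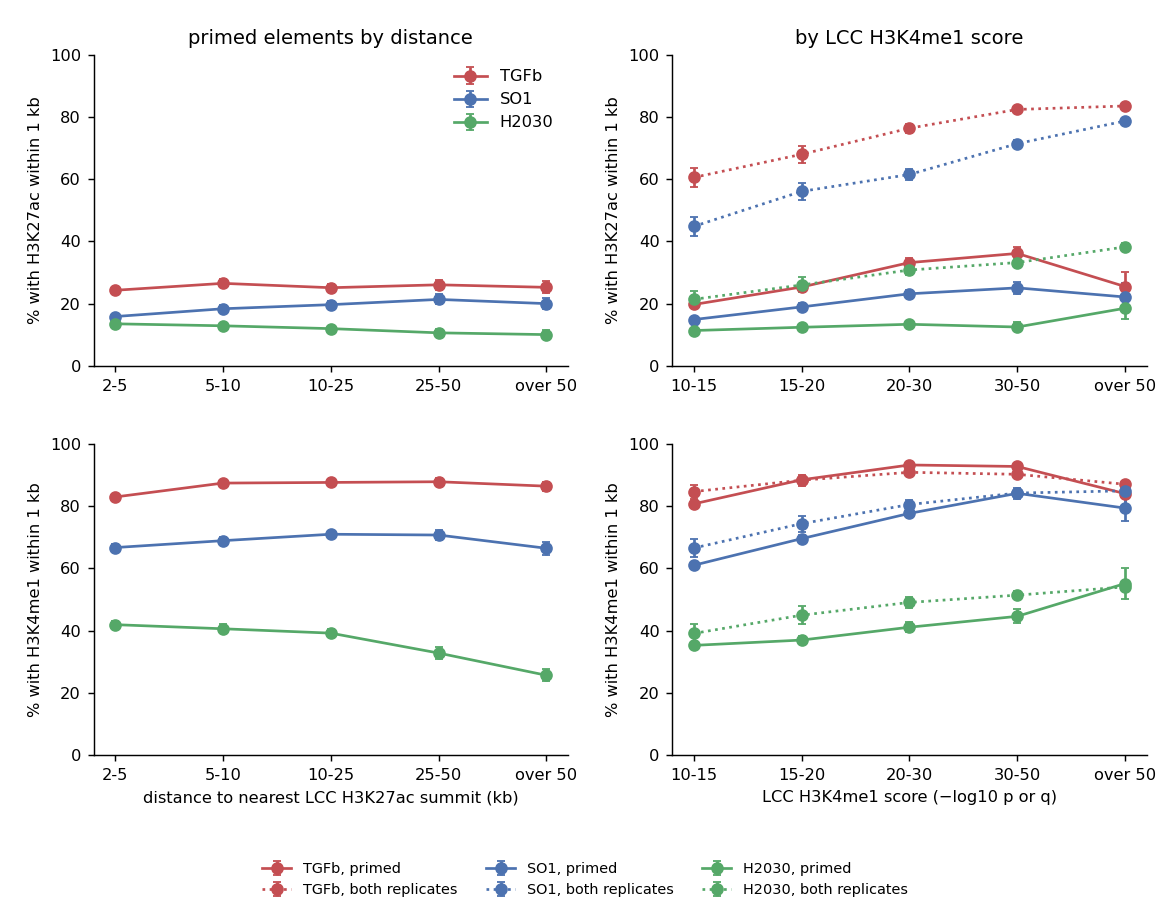
Share of primed elements (%) with H3K27ac (top) and H3K4me1 (bottom) within 1 kb in TGFb, SO1 and H2030 by distance to the nearest LCC H3K27ac summit (left) and by LCC H3K4me1 score (right; dotted lines, elements with H3K27ac of both LCC replicates), with Wilson 95% intervals. With distance, TGFb H3K27ac stays between 24.3% and 26.5% and H2030 H3K4me1 is 41.9% in the nearest and 25.7% in the farthest group; by score, the solid and dotted H3K4me1 lines of SO1 meet at scores of 30 to 50 and lie apart elsewhere.

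Single elements show what a strong gain looks like in the lists. No gene is assigned to them, since no annotation of hg19 was used here, and scores rank a summit within its own list only. The primed elements with the highest TGFb H3K27ac scores were chr22:30029235 (424), chr17:42664684 (411), chr10:49815488 (396), chr11:111815362 (376) and chr15:101261138 (369). The first lay 2980 bp from LCC H3K27ac, the third 2168 bp and the fifth 2022 bp. These are therefore beside active LCC sites, and a broad LCC peak over them cannot be told apart from a new site.

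The other elements were farther from LCC H3K27ac. At chr17:42664684 the nearest LCC H3K27ac summits were 12470 bp away in replicate 1 and 12569 bp in replicate 2. Its H3K4me1 scored 28.2 in LCC, 73.2 in TGFb, 14.9 in SO1 and 46.5 in H2030, and its H3K27ac 411 in TGFb and 127 in H2030, with none in SO1 within 30359 bp. It thus had H3K4me1 without H3K27ac in LCC and SO1 and both marks in the other conditions.

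Further elements were picked, after the values were seen, as the highest in each condition among those with no LCC H3K27ac or H3K4me3 within 10 kb. At chr5:136806003, H3K27ac scored 355 in TGFb and 32.6 in H2030, and SO1 had none within 66738 bp. H3K4me1 there scored 15.1 in LCC, 67.8 in TGFb, 5.23 in SO1 and 19.8 in H2030. The element was picked for its TGFb H3K27ac score, and scores of different lists are not compared, so no ranking of the conditions is read from it.

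At chr10:32702427, H3K27ac scored 340.3 in TGFb and 9.52 in SO1, and the nearest H2030 summit was 32946 bp away. At chr17:35259102 it scored 311 in TGFb and 8.40 in SO1, and the nearest H2030 summit was 42979 bp away. Both were strong in TGFb and weak in SO1. At chr12:104982511 the TGFb H3K27ac summit scored 338 and was joined by TGFb H3K4me3 scoring 97.96, below that list's median.

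In SO1 the highest H3K27ac score at a primed element was 563 at chr12:76415360. The nearest LCC H3K27ac summits were 4126 bp away in replicate 1 and 5317 bp in replicate 2, and the nearest TGFb one was 8986 bp away. The elements chr10:49815488 (528) and chr15:101261138 (501), listed above for TGFb, came next. Then followed chr15:93347982 (459) and chr1:156718074 (418), the latter also marked in H2030 at 435 and 3001 bp from LCC H3K27ac.

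Among elements clear of LCC marks for 10 kb, chr12:72689873 had the highest SO1 score, 251, with 149 in TGFb and none in H2030 within 456613 bp. At chr2:20366382, H3K27ac scored 218 in SO1, 210.4 in TGFb and 4.70 in H2030. H3K4me1 there scored 43.3 in LCC, 46.8 in TGFb, 90.7 in SO1 and 16.8 in H2030. Both were strongly acetylated in TGFb and SO1 and weakly or not at all in H2030. At chr3:157077640 the SO1 score was 246, against 15.3 in TGFb and 31.3 in H2030.

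In H2030 the 5 highest H3K27ac scores ran from 393 to 454. The highest lay at chr6:86354605-86355280, where SO1 scored 300.3. The nearest H3K27ac summit there was 2214 bp away in LCC and 2242 bp away in TGFb. At chr2:228253340, 14871 bp from LCC H3K27ac, H2030 scored 410.0 and SO1 7.02, with no TGFb summit within 14717 bp. Its H3K4me1 scored 10.45 in LCC, 12.9 in SO1 and 78.5 in H2030. At chr7:17139493 H2030 scored 381, and the nearest H3K27ac summits of LCC, SO1 and TGFb were all more than 40 kb away. At chr1:185615182-185616035, an element of 2 summits, H3K27ac scored 358 in H2030, 26.5 in TGFb and 26.2 in SO1.

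Some strong primed elements had no mark in any other condition. The highest LCC H3K4me1 scores among them were 103 at chr11:121332174, 75.03 at chr10:95221320, 70.1 at chr5:72244054, 68.5 at chr4:74569272 and 66.6 at chr11:128380296. Their nearest TGFb H3K4me1 summits were between 1685 and 4340 bp away, so their absence depends on the 1 kb window. An element that was primed and stayed so was chr1:8933308-8934222, where H3K4me1 scored 56.9 in LCC, 40.4 in TGFb, 67.7 in SO1 and 87.4 in H2030 and no condition had H3K27ac within 1 kb. At chr1:30931785-30932437, H3K4me1 scored 16.8 in LCC and 26.0 in TGFb, and the nearest H3K4me1 summit was 241293 bp away in SO1 and 52278 bp in H2030.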

How the data were processed

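The 13 peak lists cover 3 histone marks in 4 conditions, with groups taken from sample titles. The 5 input libraries were not analysed here. Bowtie2, SAMtools, deepTools and hg19 were used, per the submitters' processing notes. The peak caller, control and settings were not given in the sources used here. The deposited score per peak was taken to be the −log10 of a p or q value, since the lowest in any list, 1.30107, lies just above 1.30103, the −log10 of 0.05. It grows with depth and ranks peaks within a list. Peak names carry 1 library name, so the authors called peaks per library.

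Chromosomes 1 to 22 and X were kept, leaving out 29 to 238 per list. A mark counted at an element within 1 kb. Python 3.11.15, numpy 2.4.6 and pandas 2.3.3 were used. No test was run, and shares have Wilson 95% intervals. The selection was checked with simulated sites planted in the deposited lists. The members and lists were chosen with earlier results of these data known. Elements were named as those with the highest LCC H3K4me1 score, the highest H3K27ac or H3K4me3 score per condition, the highest LCC score without other marks, the most merged summits, and those at the thresholds. Names 10 kb clear of LCC marks, equal list lengths for the replicate draws, and blocks of 500 kb were added after seeing the data. Positions are hg19, and the reference tables are of another build, so no gene or sequence is given.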

Additional observations from a re-analysis of the deposited data

How the results depend on the processing

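Counting any summit, the shares of primed elements kept the order TGFb, SO1, H2030 for H3K4me1 and H3K27ac, and the reverse order for H3K4me3, under the alternatives below other than merging within 500 bp, where shares were not computed. With strong summits alone, H3K27ac lay at 5.77%, 3.63% and 4.87%, so that order did not hold. The number of elements was 6464 with a minimum score of 20 and 9765 with LCC marks 10 kb away. With a minimum score of 20, H3K27ac lay at 33.6%, 23.7% and 13.4% in TGFb, SO1 and H2030, H3K4me1 at 92.5%, 79.7% and 43.0%, and H3K4me3 at 2.48% in TGFb and 2.72% in SO1. With LCC marks 10 kb away, H3K27ac was 20.1% in SO1 and 11.2% in H2030, and H3K4me1 87.4%, 69.8% and 34.7%. With marks counted within 500 bp, H3K27ac was 21.6%, 15.5% and 9.46%, H3K4me1 74.1%, 59.7% and 30.0005%, and H3K4me3 1.46%, 1.91% and 2.12%. With marks scoring at least 10, H3K27ac was 11.7%, 10.1% and 6.63%, H3K4me1 56.9%, 48.9% and 20.6%, and H3K4me3 0.501%, 0.983% and 1.68%. With equal list lengths, H3K27ac was 18.5% in TGFb and 17.9% in SO1, H3K4me1 82.8% and 70.0%, and H3K4me3 1.05% and 1.49%.

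Leaving out either LCC H3K27ac replicate gave 23537 to 29414 elements, H3K27ac at 26.9% to 36.1% in TGFb, 20.1% to 26.3% in SO1 and 12.7% to 14.8% in H2030, H3K4me1 at 86.1% to 87.2%, 68.2% to 72.3% and 38.2% to 40.0%, and H3K4me3 at 2.10% to 2.24%, 2.49% to 2.78% and 2.75% to 3.16%. Merging within 500 bp gave 20969 elements. The cause of these shifts was not tested. No paired analysis was possible because no test was run: LCC H3K27ac and the LCC inputs share replicate numbers, and the inputs were not analysed here. Depth is unknown, so an absent summit can be a site under the detection limit of its library.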

Other observations

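The primed elements were also counted in blocks of 500 kb, an arrangement chosen after seeing the data. Of 3979 blocks with a primed element, 521 held at least 10, with 6406 elements in all, and the most was 26 at chr5:138000001-138500000. In these blocks the median share with TGFb H3K27ac was 23.1%, and 47 blocks had none. The highest share was 8 of 12 at chr1:9000001-9500000. For SO1 the highest was 8 of 10 at chr6:85000001-85500000, where TGFb marked 3 and H2030 marked 3. For H2030 it was 12 of 16 at chr15:67000001-67500000, where TGFb marked 5 and SO1 marked 3. These blocks were picked as the highest of many. The chromosome 1 block held 138 summits of the 3 marks in TGFb and 121 in LCC. On chromosome 6 SO1 had 37 and LCC 24, and on chromosome 15 H2030 had 165 and LCC 111. Shares of background elements were not computed by block, so these counts are not read as particular to primed elements.

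Blocks were also picked for the lowest shares of primed elements with H3K4me1 in a condition. At chr3:181500001-182000000, 14 primed elements of LCC had H3K4me1 at 11 in TGFb, 2 in SO1 and none in H2030, and H3K27ac at none in any of them. In that block LCC had 76 summits of the 3 marks, TGFb 69, SO1 41 and H2030 4, so few H2030 sites of any kind were listed there. At chr3:134500001-135000000, TGFb kept H3K4me1 at 16 of 17 primed elements, SO1 at 12 and H2030 at none, and H2030 had 3 summits in the block against 65 in LCC. There were 10 blocks with at least 15 LCC summits in which SO1 had at most 5% of that number. They held 25 primed elements, 0.120% of all, each with H3K4me1 in TGFb and none in SO1, and without them SO1 H3K4me1 lay at 68.9% of primed elements. The lack of SO1 marks in them follows largely from how these blocks were picked.

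By chromosome, primed elements made up between 28.4 per 100 background elements on chromosome X and 44.8 on chromosome 5. H2030 H3K27ac ranged from 8.84% of primed elements on chromosome 3 to 23.9% on chromosome 19. SO1 H3K27ac ranged from 12.2% on chromosome 22 to 26.6% on chromosome 19. The background elements of chromosome 19 were also marked more often, 31.2% in H2030 and 50.7% in SO1.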
